A study of Mus musculus with 3 samples.

Results

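E-cadherin, the 2 lymphocyte receptors that bind it and the catenins that hold its tail were described here in follicular regulatory T (Tfr) cells without raptor, on arrays of mouse spleen cells. The members were 7 genes, of 18193 named on the array: Cdh1 (E-cadherin), Klrg1, Itgae, Ctnnb1, Ctnna1, Ctnnd1 and Jup. They were selected by symbol, taking every probe set annotated to 1 of these genes alone, which gave 15 probe sets. Cdh1 led the choice because it had already been seen among the largest increases in this same contrast, and the others were taken for their known binding to it or to its tail. The contrast is therefore given for the members as a description, with no test.

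The Rptor-null group was 2 pools of 8 mice each, of the C57BL/6 background with floxed Rptor alleles (Rptorfl/fl) and CD4-Cre. The WT group was 1 pool of 4 wild-type C57BL/6 mice. All mice had been immunized with OVA (ovalbumin) 8 days earlier, and Tfr cells were sorted from lineage-depleted spleen lymphocytes by their surface CXCR5, CD25, GITR, CD44 and CD4. Rptor encodes raptor, the subunit that defines the growth-controlling kinase complex mTORC1, and CD4-Cre acts in developing T cells, so T cells other than Tfr cells lack the gene too. With 1 array per pool, the WT readings carry no error, and those of the Rptor-null pools are given singly or as mean ± SD (n = 2). Readings in Rptor-null or WT cells are those of whole pools, whatever cell types these held.

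E-cadherin is a calcium-dependent adhesion protein best known from epithelia, where molecules on adjoining cells bind each other. Its cytoplasmic tail binds beta-catenin or the closely related plakoglobin (Jup), alpha-catenin joins that complex to actin, and p120-catenin (Ctnnd1) keeps the cadherin at the membrane. Lymphocytes meet E-cadherin through KLRG1, an inhibitory lectin-like receptor of NK cells, effector T cells and some regulatory T cells, and through the integrin of the alpha-E chain (Itgae, CD103) with beta-7, which holds T cells at epithelia. Beta-catenin also carries Wnt signals to the nucleus.

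Of the 15 member probe sets, 13 lay above the level filter, set at the 40th percentile of level (35.0 intensity units, from the average of the Rptor-null and WT means). Each of the 7 genes kept at least 1. Differences are log2(intensity + 16) of a Rptor-null array minus that of WT, and folds are on the same scale, which understates the change of dim probe sets. The probe sets at least 1.5-fold apart from WT on both Rptor-null arrays were those of Cdh1 and Jup, both higher, and no member was that far below WT. Over 22376 named probe sets past the filter, 2.10% met this rule upwards and 4.91% downwards. Both arrays lay on the higher side for 6 of the 13 probe sets and on the lower side for 7.

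The Cdh1 probe set (1448261_at) read 196 and 349 on the Rptor-null arrays, against 57.2 on the WT array. Both Rptor-null pools stood well above WT, where the reading was close to that array's median of 52.7. The log2 difference was 1.54 on the first Rptor-null array and 2.32 on the second, or 2.90-fold and 4.99-fold, with a mean of 1.93 ± 0.55 (SD, n = 2). By this mean Cdh1 had the rank of 2 among the 12721 genes past the filter, counted from the largest increase. The rank was 5 by the first Rptor-null array alone and 2 by the second. Since Cdh1 was chosen for its large increase in this contrast, a high rank was fixed by the choice.

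The Rptor-null pools also differed from each other in Cdh1. Their gap was 0.78 on the log2 scale, or 1.72-fold, while the median gap over the kept probe sets was 0.13. A gap as large as that of Cdh1 was seen for 0.326% of kept probe sets. No second probe set for Cdh1 was at hand to set beside this one.

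**Figure D1:**
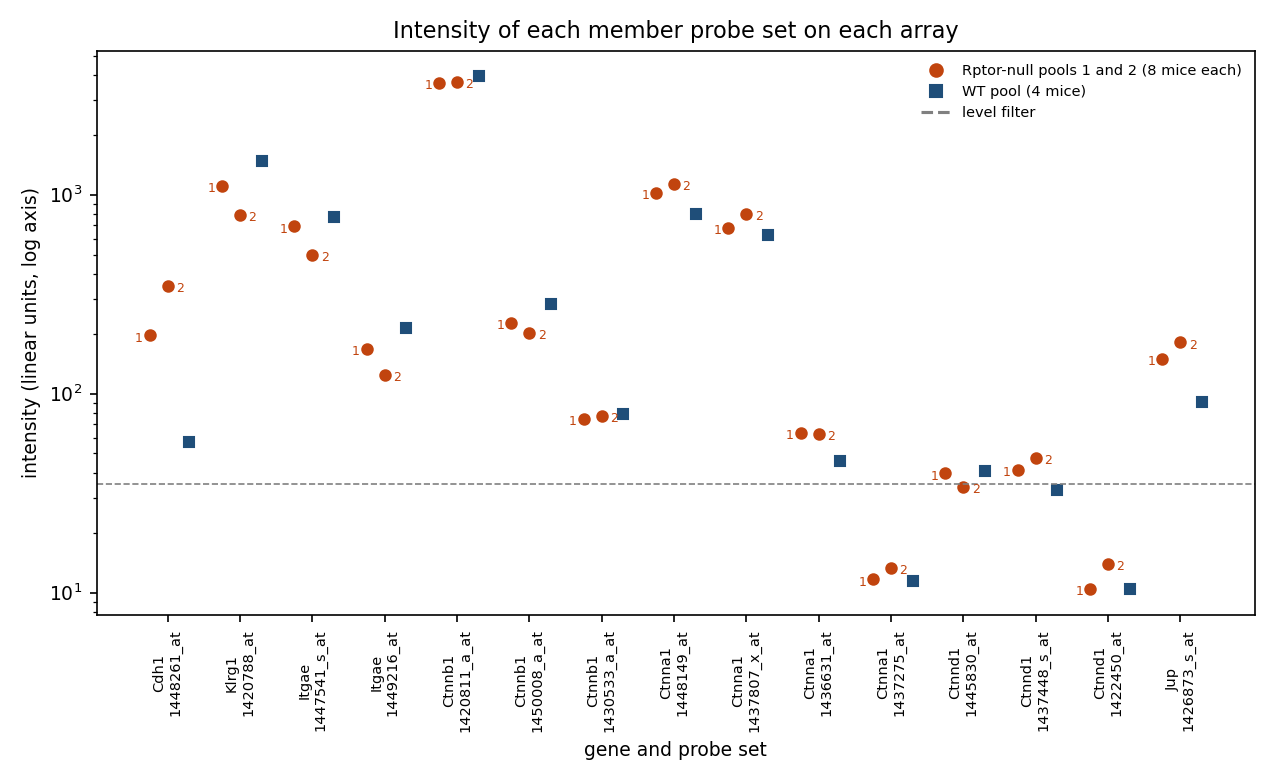
Intensity (linear units, log axis) of each of the 15 member probe sets on the Rptor-null arrays (circles, numbered by pool) and the WT array (squares); the dashed line marks the level filter of 35.0. Cdh1 read 196 and 349 in the Rptor-null pools against 57.2 in WT, while Klrg1 and both Itgae probe sets read below WT in both pools.

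Both lymphocyte receptors for E-cadherin read lower in the Rptor-null pools. Klrg1 read 1107 and 789 in Rptor-null cells, against 1470 in WT cells, a log2 difference of -0.40 on the first array and -0.88 on the second. Its 2 Rptor-null values lay below WT but far apart, 1.40-fold from each other, and 3.709% of kept probe sets had a gap as large.

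For Itgae 2 probe sets gave the same order of arrays. The brighter (1447541_s_at) read 693 and 497 in Rptor-null cells, against 774 in WT cells, and the dimmer (1449216_at) read 168 and 124, against 215. On each, the second Rptor-null array was the lowest of the 3 and WT the highest. The mean log2 differences were -0.39 ± 0.33 and -0.52 ± 0.28 (SD, n = 2). On the first Rptor-null array the brighter probe set was only 0.16 below WT and the dimmer 0.32. The size of the difference on the brighter one thus rests mainly on the second pool.

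The beta-7 chain that pairs with alpha-E, encoded by Itgb7, read 2641 and 2762 in Rptor-null cells, against 2969 in WT cells (log2 difference -0.14, limma adjusted p = 0.362). N-cadherin and R-cadherin, the other classical cadherins known to bind KLRG1, were dim: the 2 probe sets of Cdh2 read between 8.11 and 12.7 in Rptor-null cells and 7.13 and 11.2 in WT cells, and the 3 of Cdh4 between 12.8 and 28.6 in Rptor-null cells and 14.2 and 26.0 in WT cells. These 5 probe sets, chosen for display after their values were seen, all fell under the level filter. Of the cadherin ligands of KLRG1, Cdh1 was thus the one measured above that filter.

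Among the catenins that bind the cadherin tail directly, plakoglobin and beta-catenin differed in their readings. Jup, which can take the place of beta-catenin in the adhesion complex, read 150 and 181 in Rptor-null cells, against 90.7 in WT cells. Both Rptor-null values lay above the single WT value, and 79.8% of all kept probe sets likewise had both on the same side of WT. The log2 differences of Jup were 0.63 and 0.88 (mean 0.76 ± 0.18, SD, n = 2), or 1.69-fold. Its only probe set is of a class that may match several transcripts. Among the members, the same holds for every Ctnnb1 probe set, the brighter Itgae one, 1437807_x_at of Ctnna1 and 1437448_s_at of Ctnnd1.

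The brightest Ctnnb1 probe set (1420811_a_at) read 3660 and 3689 in Rptor-null cells, against 3933 in WT cells, a mean log2 difference of -0.10. The dimmest (1430533_a_at) read 74.4 and 77.0, against 78.5, a difference of -0.045. These differences were near the median of -0.060 over all genes. The remaining probe set (1450008_a_at) read 227 and 202, against 283, a log2 difference of -0.38 ± 0.11 (SD, n = 2). All 3 lay below WT on both Rptor-null arrays, and their sizes did not match: beta-catenin mRNA was little apart from WT on its brightest probe set.

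Alpha-catenin, the actin link, read somewhat higher. The brightest Ctnna1 probe set (1448149_at) read 1017 and 1133 in Rptor-null cells, against 804 in WT cells, a mean log2 difference of 0.41 ± 0.11 (SD, n = 2). The next (1437807_x_at) read 680 and 798, against 625, and the third (1436631_at) 63.3 and 62.7, against 45.8, with mean differences of 0.23 and 0.35. On each of these 3 both Rptor-null arrays were above WT, and the fourth (1437275_at) stayed under the level filter at 11.6 and 13.3, against 11.4.

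For p120-catenin no direction can be given. One Ctnnd1 probe set (1445830_at) read 39.7 and 34.0 in Rptor-null cells, against 40.9 in WT cells, and another (1437448_s_at) read 41.4 and 47.4, against 32.6. They pointed opposite ways, with mean log2 differences of -0.11 and 0.31, and both were just above the level filter. The last (1422450_at) was below it, at 10.4 and 13.9 in Rptor-null cells and 10.4 in WT cells.

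The second Rptor-null array lay farther from WT than the first for 10 of the 13 member probe sets past the filter, and the first farther for 3. Over all kept probe sets, 79.8% had both Rptor-null arrays on the same side of WT, and 38.5% had that order as well as the second array farther out. With the brightest probe set for each gene, the median log2 difference of the 7 members was -0.098, beside -0.060 over all 12721 genes.

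**Figure D2:**
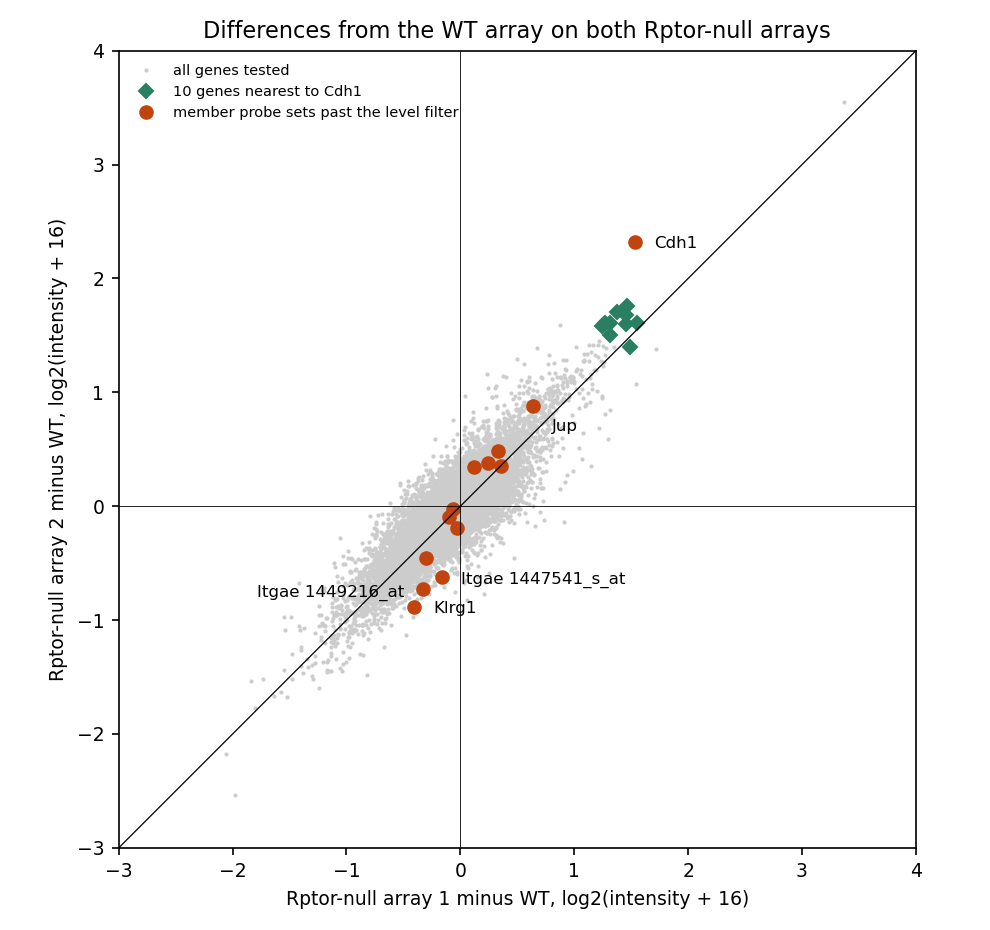
Difference from WT in log2(intensity + 16) on the first (x axis) and second (y axis) Rptor-null array, for all 12721 genes tested (grey), the 13 member probe sets past the level filter (orange) and the 10 genes nearest to Cdh1 (green); the diagonal marks equal differences. Cdh1, at 1.54 and 2.32, lies above the diagonal and above its nearest genes.

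The genes whose pair of differences from WT was most like that of Cdh1 were ranked by Euclidean distance over the 2 Rptor-null arrays. The nearest was Sema6d, a semaphorin, at a distance of 0.57 log2 units, with 1645 and 2013 on the Rptor-null arrays against 585 on the WT array. Adamdec1 (0.63), Csf2rb2 (0.64), Ms4a2 (0.71), Apobec1 (0.72), Slc45a3 (0.74), Hdc (0.76), Dmxl2 (0.79), Gfra2 (0.85) and Rpl27a (0.92) followed. Of these 10, the 3 genes Csf2rb2, Ms4a2 and Hdc belonged to the list of basophil and mast cell markers. The rest were in no marker list. That list held 13 of the 12721 genes tested and was drawn up with earlier results known. Nearness to Cdh1 picks large increases, so the overlap is a description only. Cdh1 had a wider gap between the Rptor-null arrays than each of the 10. Ms4a2, a subunit of the receptor that holds IgE on basophils and mast cells, read 381 and 396 on the Rptor-null arrays against 119 in WT. Hdc, the enzyme that makes histamine, read 313 and 399 against 120. All 10 differences use the same WT array as Cdh1, and the likeness is over 2 values a gene.

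Markers of other cell types were read beside Cdh1, since in pooled sorted cells a change in the share of a cell type and a change in RNA per cell cannot be told apart. Calls in the lists that follow are from limma with Benjamini-Hochberg adjustment over 12721 genes, at an adjusted p of 0.05. This test called 15.0% of all genes, 3.93% higher and 11.1% lower in Rptor-null cells. With 1 WT array it takes its spread from the 2 Rptor-null arrays.

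Basophil and mast cell markers were called higher in 6 of 13 measured cases and lower in 0. Their summed intensities were 3315 and 3986 on the Rptor-null arrays against 1961 on the WT array. The only marker of the list not higher than WT on both Rptor-null arrays was Cma1, at 182 and 264 against 254. Fcer1a, another subunit of that IgE receptor, rose 2.38-fold (254 and 294 against 106, adjusted p = 0.00511), and Mcpt8, a basophil protease, read 423 and 559 against 362 (adjusted p = 0.163). Red pulp macrophage markers were higher in 12 of 18 cases and lower in 0, with sums of 50140 and 56801 against 29150. Slc40a1, the iron exporter ferroportin, rose 2.52-fold and Adgre1, the F4/80 antigen, 1.88-fold (adjusted p = 0.00185 and 0.00711). The part of these markers in the Cdh1 difference was not tested.

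Epithelial markers had 0 of 9 higher and 1 lower, with sums of 684 and 622 on the Rptor-null arrays against 697 on the WT array. The 1 lower was Epcam, an adhesion protein of epithelia that T cells and dendritic cells can also carry, at 114 and 91.7 against 237 (adjusted p = 0.0095). The other 8, set apart after the values were seen, had sums of 570.5 and 530.5 against 460. Of the 9, 6 read higher than WT on both Rptor-null arrays and 2 lower, with a median log2 difference of 0.18 beside -0.060 over all genes. Of all genes tested, 40.1% read higher than WT on the first Rptor-null array and 43.9% on the second, each array taken alone. The keratin Krt8 read 45.4 and 38.2 against 48.5 (adjusted p = 0.559), and Krt18 read 25.6 on both Rptor-null arrays against 25.3 on the WT array, under the level filter. Dendritic and Langerhans cell markers, of which Langerhans cells are known for E-cadherin, had 0 of 12 higher and 2 lower, with sums of 2782 and 3079 against 2949. The other 10 read higher than WT on both Rptor-null arrays without passing the test, beside the 40.1% and 43.9% of all genes given above for each array alone. The list median was 0.26. The part of these markers and of the epithelial ones in the Cdh1 difference was not tested. The 2 lower were the lectin Cd209a and the tetherin gene Bst2, by 2.59-fold and 1.56-fold (adjusted p = 0.00404 and 0.0146), and Itgax, which encodes CD11c, read 316 and 336 against 245 (adjusted p = 0.107).

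NK and CD8 T cell markers, a set that could share Klrg1, had 2 of 11 higher and 1 lower. Their sums were 24620 and 26630 on the Rptor-null arrays against 22357 on the WT array. The 2 higher were Klra8, an NK receptor, and Eomes, by log2 differences of 1.18 and 0.50, and the 1 lower was Cd8b1, at -1.18 (adjusted p from 0.00277 to 0.0192). Klra8, whose probe set may match several transcripts, and Cd8b1 are named after their values were seen. Ncr1, an NK receptor, read 299 and 285 against 398 (adjusted p = 0.0724), and Cd8a read 38.8 and 45.0 against 46.5 (adjusted p = 0.686). B and plasma cell markers had 0 of 9 called, with sums of 5486 and 5711 against 5989, and erythroid and platelet markers 0 of 11, with sums of 1865 and 1866 against 1643. At an unadjusted p under 0.05, 2 B and plasma cell markers and 1 erythroid or platelet marker passed, with no share of all genes determined at that threshold.

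The markers of the sorted cells themselves were present, and most were lower. T cell markers were lower in 8 of 13 cases and higher in 0, with sums of 38340 and 37536 in Rptor-null cells against 55406 in WT cells. Regulatory and follicular T cell markers were lower in 10 of 15 cases and higher in 0, with sums of 21110 and 18989 against 31271. Red pulp macrophage markers summed to 50140 and 56801 against 29150, above both of these lists on the Rptor-null arrays. The macrophage marker Csf1r alone read 12569 and 14904 against 7911. Sums over different probe sets do not measure shares of cells. Foxp3, the regulatory T cell transcription factor, read 587 and 423 against 752 (adjusted p = 0.0799), and Cd3e, a T cell receptor chain, 3575 and 3850 against 4347 (adjusted p = 0.14). Klrg1, Itgae and Foxp3 read lowest on the second Rptor-null array, as did the sums of both T cell lists, while Cd3e read lowest on the first. The part of the T cell markers in the differences of Klrg1 and Itgae was not tested.

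**Figure D3:**
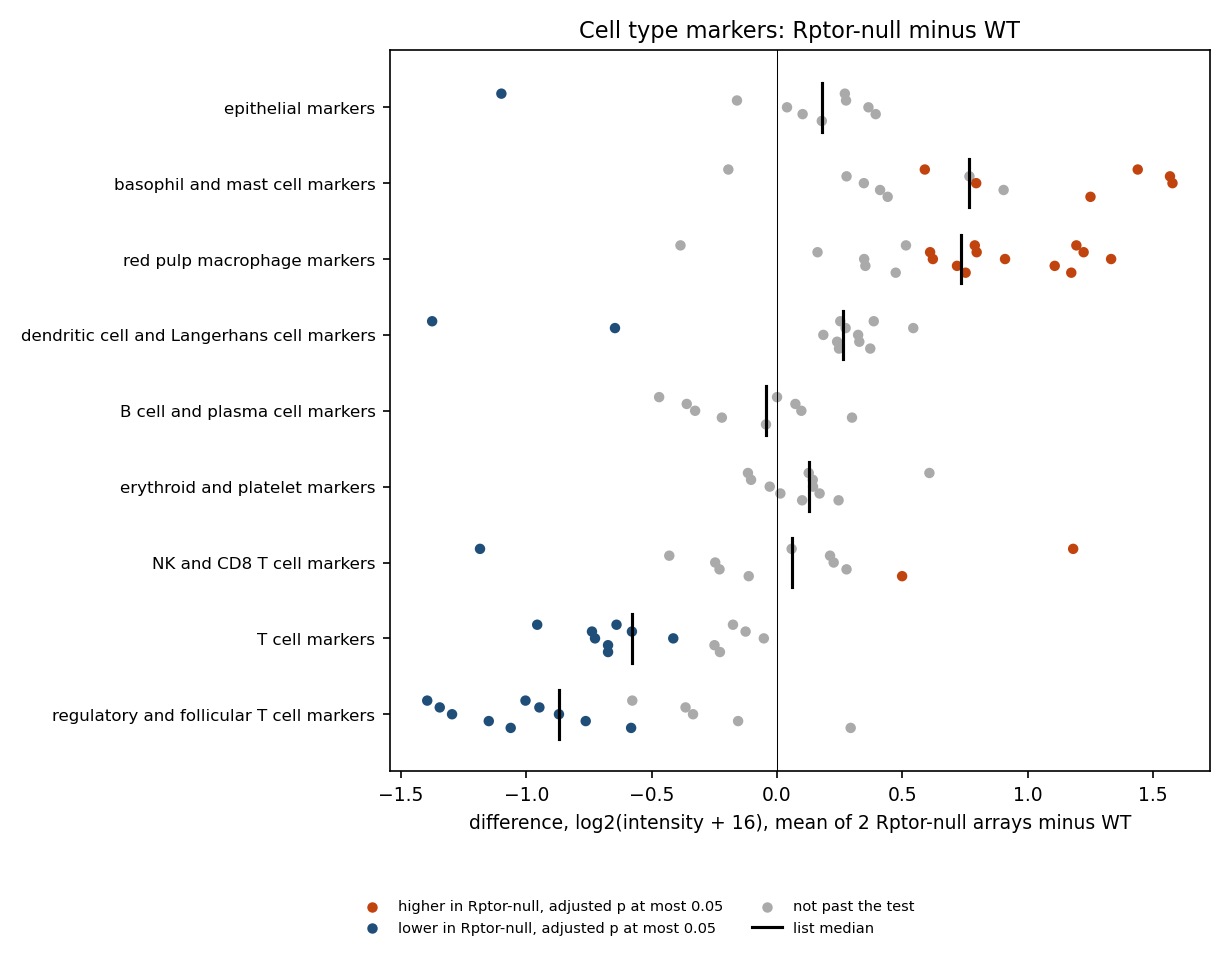
Log2 difference (mean of the 2 Rptor-null arrays minus WT) for each measured gene of 9 marker lists; orange points were called higher and blue points lower by limma (adjusted p at most 0.05), grey points did not pass, and black bars are list medians. Basophil and red pulp macrophage markers lie mostly to the right (medians 0.77 and 0.74), and T cell and regulatory T cell markers to the left (-0.58 and -0.87).

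Other cadherins gave no call. Of 34 fixed genes, which also hold desmosomal and atypical cadherins, 16 were measured above the level filter. At the adjusted threshold limma called 0 of them, beside 15.0% of all genes. At an unadjusted p under 0.05, 1 passed, and the share of all genes at that threshold was not determined. Their median log2 difference was 0.16. The list was dim, with a sum of 1126.5 over these 16 genes on the WT array. The offset of 16 shrinks dim differences, so the share over all genes is not a like comparison. The largest difference shared by both arrays was that of Cdh3 (P-cadherin), at 52.6 and 54.4 in Rptor-null cells against 38.0 in WT cells (log2 difference 0.36, adjusted p = 0.153). Dsg2, a desmosomal cadherin, read 45.2 and 43.1 against 33.3, and Celsr1, an atypical cadherin, 206 and 231 against 273 (adjusted p = 0.245 and 0.226). Dchs1, Cdh13 and Fat2 had log2 differences of 0.27, 0.17 and 0.16 (adjusted p from 0.295 to 0.56).

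Genes that work with cadherins at the adherens junction and on the actin beneath it were mixed, with 1 of 26 called higher, 5 lower and 20 not past the test. The share called was 23.1%, beside 15.0% of all genes (3.93% higher and 11.1% lower), and the median difference was 0.062. Pkp3, a plakophilin of the p120-catenin family, fell most: 857 and 854 in Rptor-null cells against 1421 in WT cells, 1.65-fold lower (log2 difference -0.72 ± 0.10, SE; adjusted p = 0.00656). Its 2 kept probe sets were both lower, and the call held in 9 of 9 alternative settings.

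The others that fell were regulators of small GTPases and actin. Sipa1, which switches Rap1 off, read 599 on both Rptor-null arrays against 863 in WT (adjusted p = 0.0227), Rac1, a GTPase of actin growth, 3201 and 3400 against 4456 (adjusted p = 0.0196), and Actn4, an actin crosslinker, 1643 and 1635 against 2183 (adjusted p = 0.0267). Each of these calls was lost in 2 alternative settings. Vasp, which extends actin filaments, was 1.31-fold lower, and Rap1b, a GTPase of integrin and cadherin adhesion, was 1.25-fold higher (adjusted p = 0.0277 and 0.0327). Both are named because they were the remaining calls of the list, and that of Vasp was lost after quantile normalization. The kept probe sets of Rac1 and of Rap1b did not all point the same way, and both calls were lost when probe sets were averaged. Without a variance trend, that is with 1 prior spread for dim and bright genes alike, Pkp3 was the only call of this list.

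The junction linkers Afdn (afadin), at 164 and 174 in Rptor-null cells against 114 in WT cells, and Lima1 (EPLIN), at 212 and 272 against 154, did not pass (adjusted p = 0.0706 and 0.0684). EPLIN ties alpha-catenin to actin, and afadin ties the neighbouring nectins to it. Of the 4 kept Lima1 probe sets, 3 were higher and 1 lower.

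Among genes that control cadherin transcription or turnover, 3 of 36 were called higher, 3 lower and 30 did not pass, with a median log2 difference of -0.032. The share called, 16.7%, was near the 15.0% of all genes. Zeb2, a zinc finger repressor of the Cdh1 promoter in epithelia, rose 1.72-fold, with 546 and 615 in Rptor-null cells against 330 in WT cells (adjusted p = 0.0106). All 5 of its kept probe sets were higher, by log2 differences of 0.36 to 1.03. Klf4, a transcription factor known to activate Cdh1 in epithelial cells, rose 1.45-fold, with 2396 and 2496 against 1680 (adjusted p = 0.0111). Zeb2 and Klf4 were thus both higher on the arrays where Cdh1 was higher, and their part in the Cdh1 difference was not tested.

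Id3 and Id2 inhibit the E proteins, which bind E-boxes of the Cdh1 promoter in epithelial cells. Id3 fell 1.97-fold, with 399 and 414 in Rptor-null cells against 818 in WT cells (adjusted p = 0.00462), and Id2 rose 1.31-fold, with 3585 and 3704 against 2778 (adjusted p = 0.0254). The related inhibitors therefore differed in direction. Psen2, a catalytic subunit of the gamma-secretase that can cut cadherins, was 1.74-fold lower, and Rab11a, a GTPase of recycling endosomes, 1.33-fold lower (adjusted p = 0.00537 and 0.0278). Each had a second kept probe set that was higher on both Rptor-null arrays, and both calls were lost when probe sets were averaged. Without a variance trend the calls of Klf4, Id2 and Rab11a were lost.

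Genes of beta-catenin turnover and of its nuclear partners were nearly all uncalled. At the adjusted threshold 1 of 52 was higher and 0 lower, or 1.92% of the list beside 15.0% of all genes. At an unadjusted p under 0.05, 10 of the 52 passed. The share of all genes at that looser threshold was not determined, so the 15.0% is no measure for this count. The 1 called higher was Tcf7l2, a DNA-binding partner of beta-catenin, with 223 and 298 in Rptor-null cells against 123 in WT cells, 1.97-fold higher (log2 difference 0.98 ± 0.19, SE; adjusted p = 0.0175). Both of its kept probe sets were higher, by 0.98 and 1.32, and the call held in 9 of 9 alternative settings. Siah2, a ubiquitin ligase, read 417 and 403 against 555, and Axin1, the scaffold of the destruction complex, 452 and 519 against 637 (adjusted p = 0.0577 and 0.0978). Ep300, Fzd1 and Cby1 had log2 differences of 0.31, 0.31 and -0.33, none past the test. The list median was -0.021.

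Genes that act with the alpha-E beta-7 integrin or with KLRG1 had 3 of 24 higher, 1 lower and 20 not past the test, with a median of -0.054. The share called was again 16.7%, near the 15.0% of all genes. Zeb2, which belongs here too as a transcription factor of KLRG1-bearing effector cells, was 1 of those higher. Eomes, a T-box factor of cytotoxic lymphocytes that the NK marker list also holds, rose 1.41-fold (1309 and 1381 in Rptor-null cells against 946 in WT cells, adjusted p = 0.0192). Of its 2 kept probe sets 1 was higher on both Rptor-null arrays, and the call was lost when they were averaged. Tgfbr1, a receptor for TGF-beta, which induces CD103, rose 1.35-fold (1507 and 1442 against 1090, adjusted p = 0.028). Itgb1, the beta-1 integrin chain, fell 1.34-fold (991 and 990 against 1333, adjusted p = 0.0311), lower on all 3 of its kept probe sets, but the call was lost when these were averaged and after quantile normalization. Without a variance trend Zeb2 was the only call of this list. The homing receptor Gpr15 and Prdm1, which encodes Blimp-1, did not pass, with log2 differences of -0.54 and -0.38 (adjusted p = 0.0566 and 0.113).

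**Figure D4:**
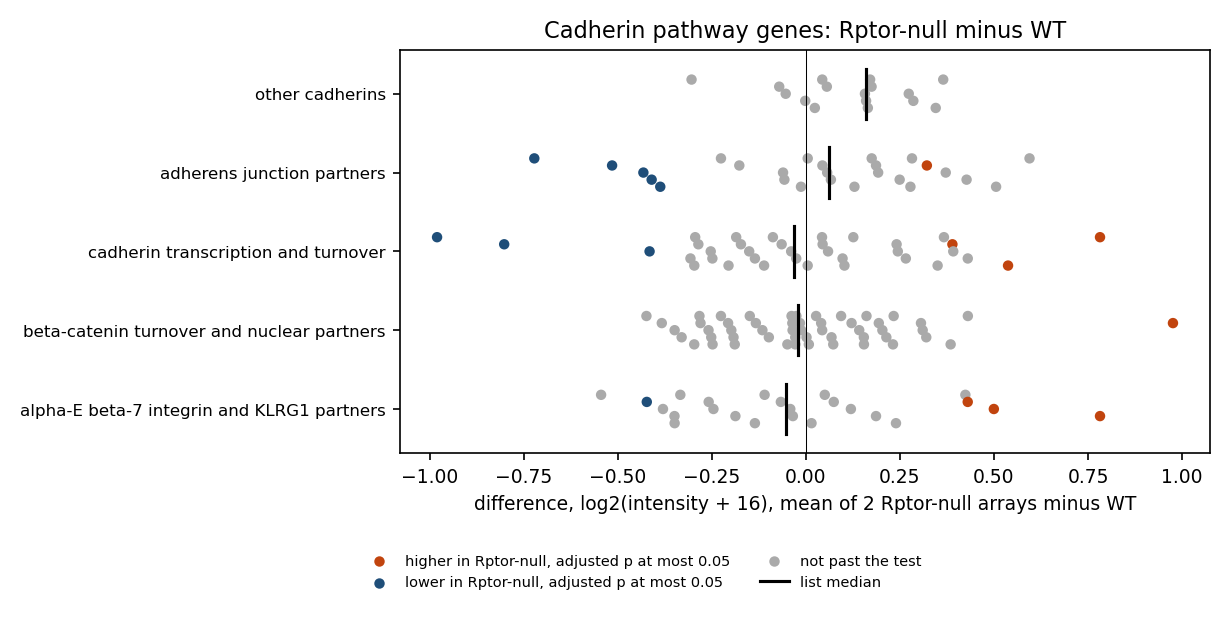
Log2 difference (mean of the 2 Rptor-null arrays minus WT) for each measured gene of 5 cadherin-related lists; colours and bars are as in the plot of cell type markers. Medians lie between -0.054 and 0.16. Among the named genes, Tcf7l2 (0.98), Zeb2 (0.78), Id3 (-0.98) and Pkp3 (-0.72) stand at the ends of their lists.

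Rptor read 353 and 412 in the Rptor-null pools and 365 in WT (log2 difference 0.059, limma adjusted p = 0.824). Whether the probes sit in the floxed segment is unknown, so this reading is no check of the deletion. Median intensities were 54.9 and 54.8 on the Rptor-null arrays and 52.7 on the WT array. RNA measures differed: the ratio of 3' to 5' control signal was 1.94 and 2.58 on the Rptor-null arrays against 1.11 on the WT array for Gapdh, and 2.65 and 2.87 against 1.40 for beta-actin. For pyruvate carboxylase it was 1.69 and 2.39 against 1.62, so that the second Rptor-null array, on which Cdh1 read highest, stood above the other two. For the transferrin receptor the ratio was 2.75 and 2.78 against 2.81. The part of RNA quality in the members' differences was not tested.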

How the data were processed

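Total RNA of the 3 pools was hybridised to single-colour Affymetrix arrays as biotin-labelled cRNA, per the labels' protocols. The deposited values are probe-set intensities on a linear scale, scaled by the authors before deposit. MAS5 is named without a version, per the submitters' processing notes, and the scaling target was not given in the sources used here. Groups came from the sample titles. Of 45101 probe sets, 64 controls were set aside, 34945 named 1 gene, 932 several and 9160 none in the platform annotation, and only the first kind was used, with symbols updated through gene identifiers.

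Intensities were taken as log2(intensity + 16). The filter at the 40th percentile of level kept 22376 named probe sets, and the brightest stood for each of 12721 genes. The fit was limma 3.58.1 in R 4.3.3 (lmFit, eBayes with trend, two-sided), with 1 residual and 6.39 prior degrees of freedom. WT was assumed to vary like the Rptor-null arrays, a spread that the design leaves unmeasured, and pools are the replicates. The number of arrays limits the precision. On 20 data sets drawn with this spread, with 200 of 12721 genes changed, 79.4% of log2 changes of 1 were called, 11.0% of log2 changes of 0.5, and 11.4% of calls were false. The real fit called a larger share, 15.0% of genes, and the drawn WT array had the assumed spread. These rates therefore hold for that setting and need not hold for the real arrays.

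Members, lists, markers and alternatives were chosen with earlier results of these data known. Named genes were all members, 6 per cadherin list with the largest difference shared by both arrays, the 10 nearest to Cdh1, the 3 markers brightest in WT and defining markers, of which a part is printed. No protein or Cdh1 promoter sequence was used here.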

Additional observations from a re-analysis of the deposited data

How the results depend on the processing

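The Cdh1 log2 difference stayed between 1.44 and 2.12 with pseudocounts of 64 and 4 and with quantile normalization (1.93) or median centring (1.88), and lay between 1.54 and 2.32 with 1 Rptor-null array left out. Of 64 member differences under settings that keep both Rptor-null arrays, 51 moved by less than 1 SD of those arrays, 12 by more and 1 turned sign, Ctnnd1 to 0.10 with the mean of its probe sets. On its dimmest probe set Ctnnd1 also turned to -0.001 without the second Rptor-null array (0.18 without the first). Leaving out 1 of 2 arrays moves their mean by a fixed share of their SD, so those settings are not counted. The member probe sets at least 1.5-fold apart, 2 as reported, were 1 with a pseudocount of 64, and 2 to 5 with 1 Rptor-null array left out. Psen2 and Rab11a turned to 0.16 and 0.20 without probe sets that may match several transcripts.

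Without a variance trend 301 genes were higher and 769 lower, and after quantile normalization 701 were lower, against 500 and 1411 as reported. That normalization turned the split to 525 higher against 701 lower. Adherens junction partners had 4 higher with the 60th percentile filter, 2 after quantile normalization, 2 with averaged probe sets, and 0 when cross-matching ones were dropped or without a trend; they had 2 lower after quantile normalization and 1 without a trend. Transcription and turnover genes had 1 higher without a trend, and 1 lower with averaged probe sets or when cross-matching ones were dropped. Beta-catenin partners had 3 higher after quantile normalization and 2 with averaged probe sets; 1 was lower with the 60th percentile filter, 2 after median centring, 1 with averaged probe sets and 1 when cross-matching ones were dropped. Integrin and KLRG1 partners had 1 higher without a trend; 2 were lower with the 60th percentile filter, 2 after median centring, and 0 after quantile normalization or without a trend. The cause was not tested. Calls could not be made with a Rptor-null array left out, since no residual degree of freedom remains. No paired analysis was possible because WT has 1 array.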
